A study of Mus musculus with 3 samples.

Results

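Amino acid and peptide transporters were described across gastrocnemius arrays of mice with an inducible Akt. Members were the probe sets that the platform annotation gives to 1 gene whose symbol starts with Slc1a, Slc3a, Slc7a, Slc15a, Slc36a, Slc38a or Slc43a and a number. This rule took 97 of 45101 probe sets and 47 genes. Of these, 2 genes with 3 probe sets (Slc36a1os and Slc7a6os) are named for lying on the opposite strand near a carrier and are not transporters themselves. They are set apart, which leaves 94 probe sets of 45 transporter genes. The rule uses symbols and no measured value.

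The study used 3 Affymetrix Mouse 430 2.0 arrays, on which short probes for a transcript are combined into probe sets. The groups were tamoxifen for 24 h, tamoxifen for 48 h and oil for 24 h, with 1 array each of RNA pooled from 3 to 4 mice. All mice were of strain C57BL/CD1 and genotype Akt_Cre transgenic, and carried Akt fused to an oestrogen-binding domain in skeletal muscle. Tamoxifen is described as stabilising the fusion, and the oil mice carry it too. The promoter that drives the transgene, any part played by Cre, the number of founder lines and the animals' ages are not given in the sources used here. With 1 array per group there was no replicate error and no test was made. Differences are stated by size against a 2-fold rule, and pooling leaves the spread between mice unmeasured. No 48 h oil array was analysed, so time and treatment cannot be told apart at 48 h. No tamoxifen array without the fusion was used, so other effects of tamoxifen and those of Akt cannot be told apart.

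Amino acids enter muscle fibres through carriers of several unrelated families. Sodium-coupled carriers of the SLC1 and SLC38 families concentrate small neutral or acidic amino acids, and exchangers of the SLC7 family, many of which pair with a heavy chain of the SLC3 family, trade these for leucine and other large or cationic amino acids. SLC15 proteins move small peptides with protons, SLC36 proteins move small amino acids with protons, and SLC43 proteins carry large neutral amino acids by facilitated diffusion. Leucine and arginine inside the cell and the lysosome activate the growth kinase mTORC1, which Akt also stimulates. Several carrier genes are known targets of ATF4, a transcription factor induced by amino acid shortage.

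Values below are scaled intensities, the authors' deposited intensities multiplied by 1 factor per array so that the arrays share a median. Intensities of different probe sets cannot be set against each other, since probes differ in affinity, so each is compared only across arrays. Probe sets whose percentile rank on the array had a mean of at least 0.5 over the arrays were kept. That left 50 of 94 transporter probe sets (53.2%, against 55.4% of all probe sets with 1 gene) and 29 of 45 transporter genes. Of the 94, 42 lay above the array median on all 3 arrays, 17 on 1 or 2, and 35 on none. The lowest kept probe set belonged to Slc38a9 (mean rank 0.504, at 11.2 and 16.7 on the tamoxifen 24 h and 48 h arrays and 15.2 on oil), and the highest left out to Slc1a4 (mean rank 0.473, at 13.7, 9.78 and 14.3 in the same order). Each gene is read on the kept probe set that ranks highest, called its brightest.

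The arrays carried the muscle they are labelled for. Of 8 skeletal muscle markers, among them Ckm (muscle creatine kinase) and Myh4 (a fast myosin heavy chain), all were kept and none differed by 2-fold, and their summed intensity was 70327 and 72898 on the tamoxifen 24 h and 48 h arrays and 73049 on oil. Markers of other cells were read as well. Summed markers of macrophages (8 of 8 kept) read 2403, 1932 and 2352 in the same order, and those of endothelium (8 of 8 kept) 1215, 1006 and 1330. Fibroblast markers (6 of 6 kept) summed to 12520, 12834 and 13994, Schwann cell markers (4 of 6 kept) to 2235, 2067 and 2294, and adipocyte markers (3 of 6 kept) to 838, 558 and 682. Neutrophil markers (3 of 6 kept) gave the widest spread, at 105.1 and 59.5 on the tamoxifen 24 h and 48 h arrays against 168.7 on oil. Of 6 red blood cell markers only Alas2 was kept, at 35.7, 38.4 and 39.1. The neutrophil markers Mpo and Csf3r, the adipocyte marker Lep and the red blood cell markers Hba-a1, Slc4a1 and Hemgn were not kept. A sum mostly follows its brightest markers, and single markers did pass 2-fold. Of the adipocyte markers, Cidec was 2.15-fold above oil at 24 h and Retn 2.04-fold below it at 48 h. At 48 h 1 fibroblast marker was higher (log2 ratio 1.18) and 1 macrophage marker lower (-1.07). Of the neutrophil markers, 1 was lower at 24 h and 2 at 48 h. The part of these cells in the transporter values was not tested, and in bulk RNA a change in the number of cells of a type and in RNA per cell cannot be told apart.

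Against oil, 4 of 29 transporter genes were at least 2-fold different after 24 h of tamoxifen, where 4.83% of all 11092 genes were. Slc7a5 was higher (background 2.35% of genes) and Slc15a2, Slc43a1 and Slc38a1 were lower (background 2.48%). At 48 h, 5 of 29 passed, where 6.44% of all genes did. Slc7a5 and Slc7a8 were higher (background 3.72%), and Slc15a2, Slc43a1 and Slc7a6 were lower (background 2.71%). Both comparisons share the oil array, so a high or low oil reading alone places a gene in both. Between the tamoxifen arrays, with 48 h set against 24 h, Slc38a1 was higher (background 1.8%) and Slc15a2 lower (background 1.42%), and the other 27 were within 2-fold (background 3.22% in either direction).

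Most carriers thus read within 2-fold of oil at both times. The median log2 ratio over the 29 genes was -0.26 at 24 h, beside 0.04 over all genes, and -0.18 at 48 h, beside 0.01. Between 48 h and 24 h of tamoxifen it was 0.04, beside -0.02. The signs at 24 h and between the tamoxifen arrays are not firm against 0. With the arrays scaled to the median of all probe sets, the 24 h median was 0.027, beside 0.33 over all genes. The median between the tamoxifen arrays lay between -0.22 and -0.070 under 5 alternatives. There it was above the median of all genes in some and below it in others. The filter is an average over the arrays, so these medians describe only the genes that passed it.

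**Figure D1:**
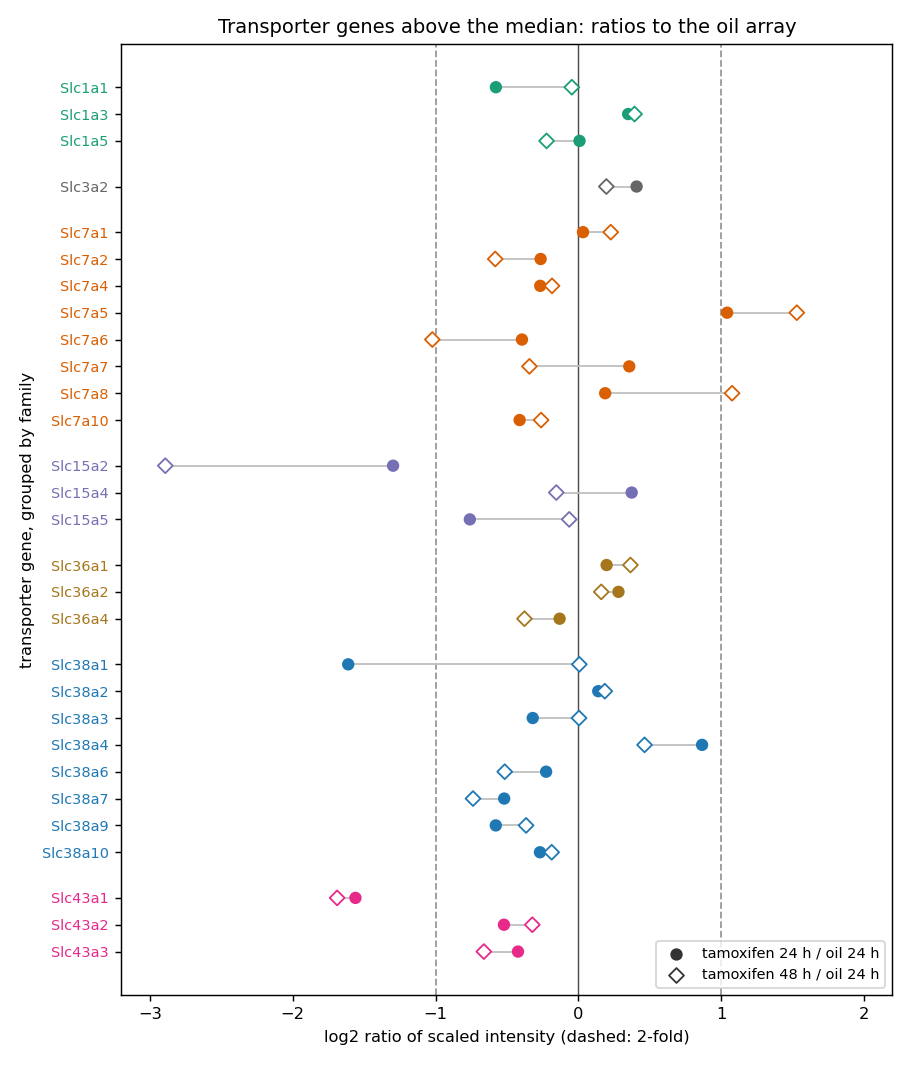
Log2 ratio of scaled intensity to the oil array for the 29 kept transporter genes, in rows grouped by family, with filled circles for tamoxifen 24 h and open diamonds for tamoxifen 48 h. Slc7a5 lies right of the 2-fold line at both times, Slc15a2 and Slc43a1 lie left of it at both times, and most other genes lie between the dashed lines.

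Dim genes pass a fold rule more often than bright ones, and the transporters past 2-fold were mostly dim. Of the 29 genes, 17 had a mean rank below 0.75 and 12 a rank of 0.75 or more. All 4 genes past 2-fold at 24 h were among the 17, where the background was 8.17% of 4332 genes. None of the 12 brighter ones passed, where the background was 2.69% of 6760. At 48 h the dim group gave 4 of 17 (background 9.56%) and the bright group 1 of 12 (background 4.44%), Slc7a6 at a log2 ratio of -1.02.

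**Figure D2:**
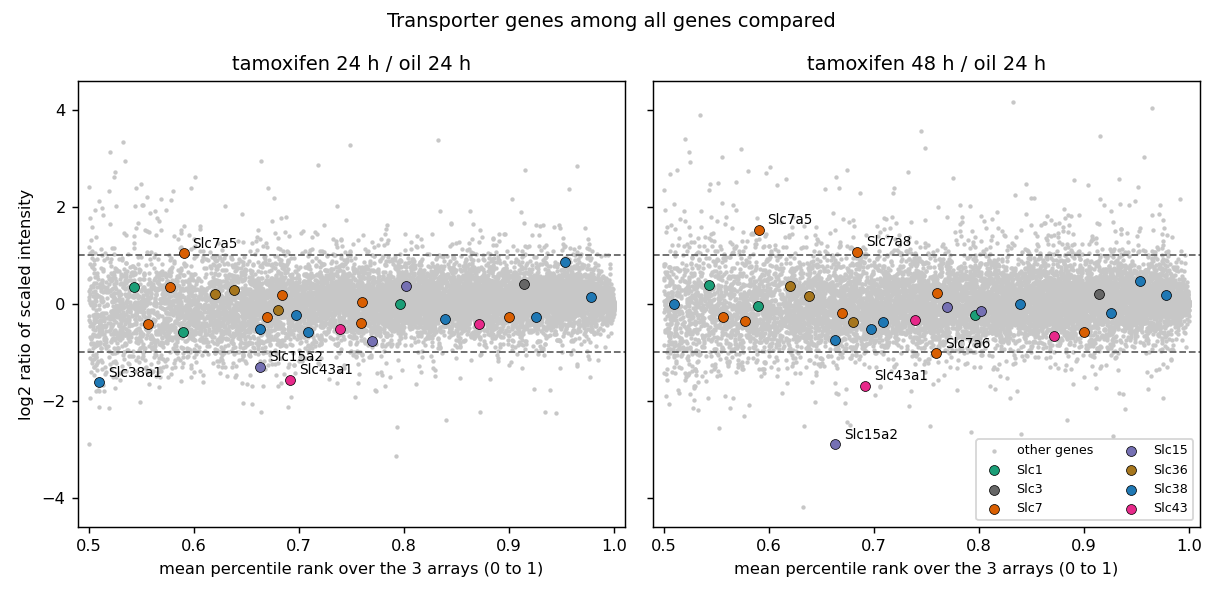
Log2 ratio of scaled intensity to oil (vertical axis) against mean percentile rank (horizontal axis), for tamoxifen 24 h on the left and 48 h on the right, with all 11092 genes in grey and transporter genes coloured by family. The grey cloud is wider at low rank, and the labelled transporters past the dashed 2-fold lines lie at ranks below 0.8.

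Large neutral amino acids cross the membrane through the exchangers Slc7a5 (LAT1) and Slc7a8 (LAT2), each bound to the heavy chain Slc3a2 (4F2hc). Slc7a5 (chr8:121881146-121907686 in GRCm38.p6) read 27.7 at 24 h and 38.9 at 48 h of tamoxifen, against 13.5 on oil. It was 2.06-fold higher than oil at 24 h and 2.89-fold higher at 48 h, and this is the gene's only probe set. Its oil reading lay under the array median of 15.2, and only the 2 tamoxifen readings lay above theirs. It thus passed the filter through the arrays where it was high. With the floor set at the median of all values, its 24 h log2 ratio was 0.98, within 2-fold, and with 16 added to each value before taking log2 it was 0.57 at 24 h and 0.90 at 48 h.

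Slc7a8 (chr14:54722215-54781886) read 35.98 at 24 h and 66.6 at 48 h of tamoxifen, against 31.6 on oil, so that only the 48 h array stood apart, 2.11-fold above oil (log2 ratio 1.08, or 0.80 with 16 added). It too has 1 probe set. Their shared heavy chain Slc3a2 read 319.5 and 275.9 on the tamoxifen 24 h and 48 h arrays against 240.8 on oil, log2 ratios of 0.41 and 0.20. Slc3a1, the heavy chain of the kidney and gut cystine carrier, was not kept and read between 6.52 and 7.49.

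A second route for leucine lies in the SLC43 family, and here all 3 genes read below oil at both times on their brightest probe sets, under all 5 scalings tried. Of all genes, 46.0% read below oil at 24 h and 49.4% at 48 h. With only 3 genes, this cannot be told apart from these shares. Both times share the oil array, and the scalings reuse the same arrays. Slc43a1 (LAT3, chr2:84838855-84863586) read 31.7 at 24 h and 29.0 at 48 h of tamoxifen, against 93.6 on oil. It was 2.95-fold lower at 24 h and 3.22-fold lower at 48 h, and the log2 ratio of the 48 h to the 24 h array was -0.13. The gene has no other probe set. Slc43a2 (LAT4) read 51.5 and 59.1 against 73.9 on oil, within 2-fold, and its other kept probe set gave log2 ratios of 0.00 at 24 h and 0.87 at 48 h, away from the first. Slc43a3, described in human cells as a carrier of nucleobases, read 165.5 and 140.2 against 221.8 on oil. Slc43a1 and Slc43a3 lie near each other on chromosome 2.

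At 48 h the leucine carriers Slc7a5 and Slc7a8 were thus past 2-fold above oil and Slc43a1 past 2-fold below it, while the probe sets of Slc43a2 lay on both sides of oil.

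**Figure D3:**
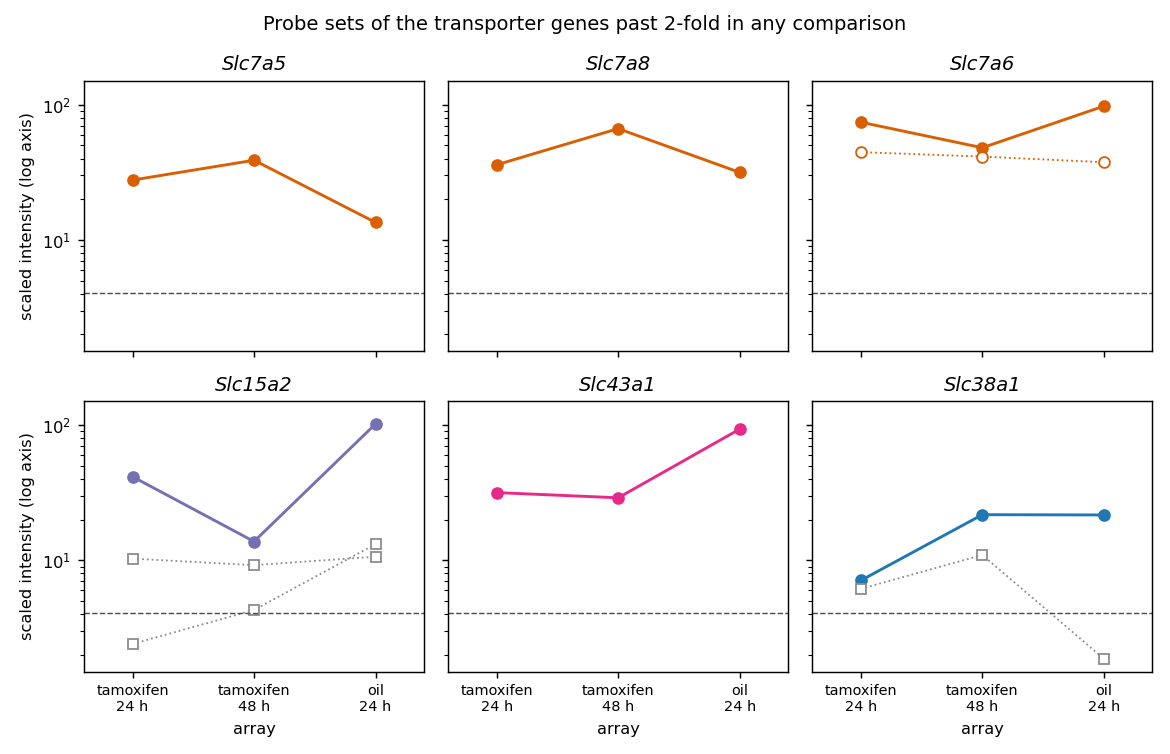
Scaled intensity (log axis) on the tamoxifen 24 h, tamoxifen 48 h and oil arrays for each probe set of the 6 transporter genes past 2-fold in any comparison; filled circles and solid lines mark the brightest kept probe set, open circles other kept ones, grey squares those not kept, and the dashed line the floor of 4.05. Slc7a5, Slc7a8 and Slc43a1 have 1 probe set each, and Slc7a6 has a second kept one that stays level.

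Exchange of cationic for neutral amino acids is the work of Slc7a6 (y+LAT2) and Slc7a7 (y+LAT1), which also bind Slc3a2. Slc7a6 (chr8:106168219-106198714) read 74.4 at 24 h and 48.1 at 48 h of tamoxifen, against 97.8 on oil, 2.03-fold lower at 48 h. Its other kept probe set read 44.6 and 41.4 against 37.6, a log2 ratio of 0.14 at 48 h, so the 2 probe sets did not go together, and the mean over both was within 2-fold. Slc7a7 read 27.9 and 17.2 against 21.8 on oil, above it at 24 h and below it at 48 h.

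The uniporters of arginine and lysine were within 2-fold of oil on their brightest probe sets. Slc7a1 (CAT1), found in most cells, read 68.1 and 77.98 against 66.6 on oil, and its other kept probe set gave log2 ratios of 0.10 and 0.38. Slc7a2 (CAT2), the form known for muscle and liver, read 238.6 and 191.4 against 286.5 on oil, log2 ratios of -0.26 and -0.58. Its other kept probe sets had log2 ratios between -0.75 and 0.36 at 24 h and between -1.08 and 0.06 at 48 h. Of its 4 kept probe sets, 3 lay below oil at both times and all 4 were lower at 48 h than at 24 h of tamoxifen, by log2 ratios between -0.33 and -0.30. Slc7a4 read 35.2 and 37.3 against 42.4. Slc7a10 (Asc-1), a carrier of small neutral amino acids known as a surface marker of fat cells, read 16.6 and 18.4 against 22.1 on oil, beside the adipocyte marker sum given above.

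No kept probe set was found for 7 SLC7 genes: Slc7a3, Slc7a9, Slc7a11, Slc7a12, Slc7a13, Slc7a14 and Slc7a15. Their 10 probe sets read between 0.43 and 14.6. Among them is Slc7a11 (xCT), the cystine-glutamate exchanger, whose brighter probe set read 6.90 and 14.6 on the tamoxifen 24 h and 48 h arrays against 11.3 on oil.

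Peptide transporters gave the lowest ratio of the 29 genes at 48 h. Slc15a2 (PEPT2, chr16:36750161-36785158), a high-affinity carrier of dipeptides and tripeptides, read 41.6 at 24 h and 13.8 at 48 h of tamoxifen, against 102.3 on oil. On this probe set Slc15a2 was 2.46-fold lower than oil at 24 h, 7.43-fold lower at 48 h, and 3.02-fold lower at 48 h than at 24 h. The 48 h reading lay under that array's median of 14.4. With 16 added to each value before taking log2, the log2 ratios to oil were -1.04 at 24 h and -1.99 at 48 h. That of the 48 h to the 24 h array was then -0.95, within 2-fold. The remaining 2 probe sets of Slc15a2 were not kept. One of them read 2.404 and 4.29 against 13.2 on oil, also lower, and the other 10.3 and 9.21 against 10.6 on oil, level.

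Slc15a4, a lysosomal carrier of histidine and peptides known mainly from immune cells, read 118.4 and 82.1 against 91.4 on oil. Slc15a5, a family member whose substrate is not established, read 53.8 and 87.1 against 91.0, so that the 24 h array was the low one, at a log2 ratio of -0.76. Slc15a1 (PEPT1), the intestinal form, and Slc15a3 were not kept and read between 0.77 and 8.51.

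Glutamine, alanine and other small neutral amino acids are taken up with sodium by the SLC38 carriers (SNATs), and 8 of 9 genes were kept. At 24 h 6 of the 8 lay below oil on their brightest probe sets, where 46.0% of all genes did. With the arrays scaled to the median of all probe sets it was 4 of the 8, and the median log2 ratio of all genes was then 0.33. Slc38a2 (SNAT2), the adaptive carrier that cells induce on amino acid shortage, read 1169 and 1207 on the tamoxifen 24 h and 48 h arrays against 1061 on oil. Its other 2 kept probe sets gave log2 ratios between -0.58 and -0.03 at 24 h and between -0.38 and 0.32 at 48 h. No 2-fold difference was seen in any of the 3.

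Slc38a4 (SNAT4), which also carries cationic amino acids and is imprinted in the mouse, read 732.9 at 24 h and 554.3 at 48 h of tamoxifen, against 401.9 on oil. It was 1.82-fold higher at 24 h and 1.38-fold higher at 48 h. Its second kept probe set gave 577.3 and 436.0 against 341.0, so both probe sets had the same order, with 24 h above 48 h and 48 h above oil. The 2 log2 ratios at 24 h, 0.87 and 0.76, differed by 0.11. Scaling to the median of all probe sets took the first past 2-fold at 24 h (log2 ratio 1.16).

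Slc38a1 (SNAT1, chr15:96571418-96643438) read 7.09 at 24 h and 21.8 at 48 h of tamoxifen, against 21.7 on oil. Only the 24 h array was low, 3.06-fold below oil, and it was then 3.07-fold higher at 48 h than at 24 h. This probe set has a mean rank of 0.510, just inside the filter, and its other probe set, not kept, read 6.15 and 10.95 against 1.87 on oil, with oil the low array. With the floor at the median of all values, the log2 ratios of Slc38a1 were -0.62 at 24 h against oil and 0.63 at 48 h against 24 h, within 2-fold. Slc38a1, Slc38a2 and Slc38a4 lie near each other on chromosome 15, between 96571418 and 97055956, and had 3 different patterns over the arrays.

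Slc38a3 (SNAT3), a system N carrier of glutamine, read 110.7 and 138.6 against 138.1 on oil. Slc38a6 read 46.7 and 38.2 against 54.5. Slc38a10 read 300.6 and 318.2 against 362.2 on its brightest probe set, while the log2 ratios of its 6 kept probe sets lay between -0.68 and 0.51 at 24 h and between -0.32 and 0.43 at 48 h. Slc38a5 (SNAT5) was not kept and read between 3.65 and 7.02.

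Carriers of the lysosomal membrane were within 2-fold of oil. Slc38a9, the arginine sensor of the lysosome that activates mTORC1, read 41.2 and 47.7 on the tamoxifen 24 h and 48 h arrays against 61.4 on oil. It has 6 kept probe sets, of which 5 lay below oil at 24 h and 4 at 48 h, and their 48 h log2 ratios ran from -1.10 to 1.38. That spread is wider than the difference on any single one of the 6. Slc38a7 (SNAT7), which exports glutamine from lysosomes, read 34.1 and 29.3 against 48.8, log2 ratios of -0.52 and -0.74. Slc36a1 (PAT1), a proton-coupled carrier also placed in the mTORC1 pathway, read 28.3 and 31.7 against 24.6 on oil.

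Its relatives Slc36a2 (PAT2), a carrier of glycine and proline also used as a marker of brown fat, and Slc36a4 (PAT4) were near oil too. Slc36a2 read 34.4 and 31.7 against 28.3 on oil. Slc36a4 read 42.2 and 35.5 against 46.2 on oil. Slc36a3 was not kept and read between 2.29 and 5.76.

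**Figure D4:**
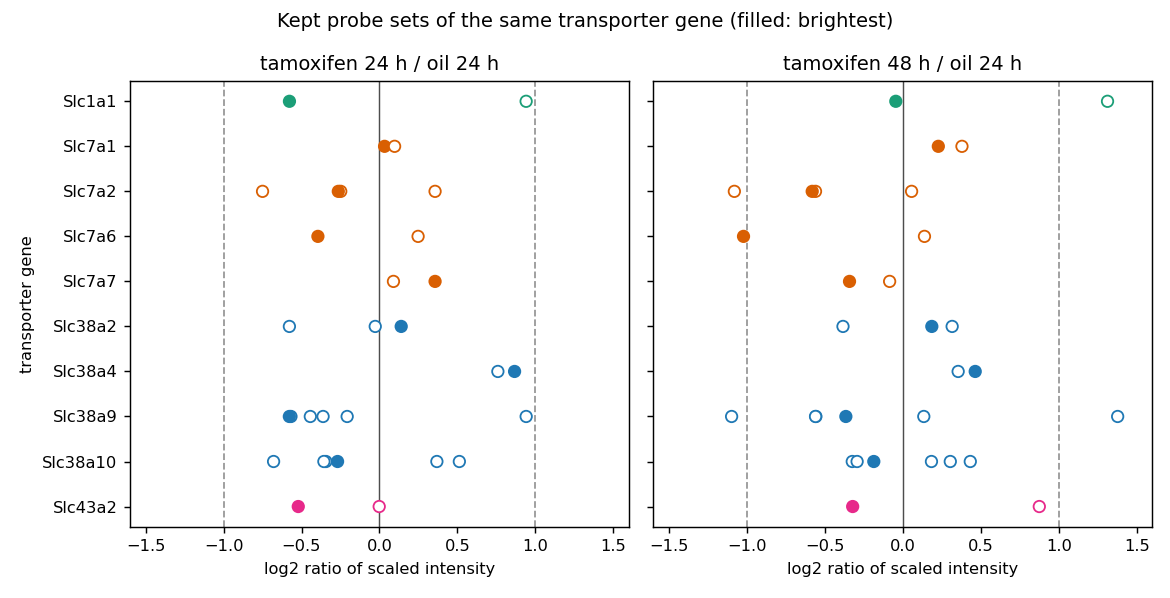
Log2 ratio of scaled intensity to oil for every kept probe set of the 10 transporter genes with several, at tamoxifen 24 h on the left and 48 h on the right, with the brightest filled. Probe sets of Slc38a4 and Slc7a1 lie close together, and those of Slc38a9, Slc38a10, Slc7a2 and Slc1a1 lie on both sides of 0.

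The SLC1 family holds the high-affinity glutamate carriers and the neutral exchangers ASCT1 and ASCT2. Slc1a5 (ASCT2), which imports glutamine, read 96.8 and 82.5 against 96.3 on oil. The other probe set of Slc1a5, not kept, read 10.6 and 6.04 against 29.5 on oil, log2 ratios of -1.47 and -2.29. Slc1a1 (EAAC1), a carrier of glutamate and cysteine, read 17.7 and 25.6 against 26.4 on oil on its brightest probe set. The 3 probe sets of Slc1a1 disagreed: the second kept one read 21.1 and 27.3 against 11.01 on oil (log2 ratios of 0.94 and 1.31), and the third, not kept, 10.2 and 17.3 against 4.76 (1.10 and 1.86). Slc1a3 (GLAST), known from glia, read 19.0 and 19.6 against 14.9 on the 1 kept of its 6 probe sets.

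Slc1a4 (ASCT1), the exchanger of serine, alanine and cysteine and a known ATF4 target, had no kept probe set. Of its 3, one read 9.96 at 24 h and 20.8 at 48 h of tamoxifen against 2.72 on oil, and another 7.36 and 14.6 against 2.21, both with oil under the floor, so that at 48 h the first was at least 5.14-fold and the second at least 3.61-fold higher. The third read 13.7 and 9.78 against 14.3 and did not go with them. None of the 3 entered the counts above. Slc1a2, Slc1a6 and Slc1a7 were not kept either, and their 7 probe sets read between 0.33 and 12.0.

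Promoter stretches from the RefSeq promoter table are printed for 3 genes past 2-fold, Slc7a8, Slc15a2 and Slc43a1, and for 2 known ATF4 targets, Slc1a4 and Slc7a11. Slc7a5 and Slc38a1 have no entry there, and Slc7a6, whose probe sets disagreed, is not printed. Each runs from 100 bases before to 10 bases after a gene start, 5′ to 3′ on the gene's strand in GRCm38.p6. Capitals mark the amino acid response element core, TGATGNAA on either strand, the element that ATF4 is known to bind.
Slc7a8, chr14:54781877-54781986, minus strand: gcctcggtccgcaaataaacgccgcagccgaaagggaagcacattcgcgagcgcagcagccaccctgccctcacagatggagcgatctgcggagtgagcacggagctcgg
Slc15a2, chr16:36784953-36785062, minus strand: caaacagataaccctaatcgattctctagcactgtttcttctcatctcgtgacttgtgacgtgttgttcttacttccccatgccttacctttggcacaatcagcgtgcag
Slc43a1, chr2:84840223-84840332, plus strand: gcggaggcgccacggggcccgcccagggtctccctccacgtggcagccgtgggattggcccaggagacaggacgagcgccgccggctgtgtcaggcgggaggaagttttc
Slc1a4, chr11:20332704-20332813, minus strand: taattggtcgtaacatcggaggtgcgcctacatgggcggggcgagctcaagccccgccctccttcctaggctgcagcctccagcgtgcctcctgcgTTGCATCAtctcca
Slc7a11, chr3:50443604-50443713, minus strand: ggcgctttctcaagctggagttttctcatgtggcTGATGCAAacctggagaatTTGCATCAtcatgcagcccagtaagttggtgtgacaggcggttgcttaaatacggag

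In Slc1a4 the match begins 4 bases before the start and spans it, and Slc7a11 holds a facing pair that begins 66 and 47 bases before the start. Over the full table window, 250 bases before to 50 after the start, 33 of the 45 transporter genes matched, with 44 promoters. The core occurred in 5 of these (11.4%, against 3.97% of 32851 promoters in the table), in Slc1a4, Slc7a7, Slc7a11 and Slc15a5. Of the 5, 2 are overlapping entries of Slc7a7 that share a site, so that site is counted in both. The FoxO core, GTAAACA on either strand, occurred in 2 (4.55%, against 3.65%), in Slc36a3 and Slc7a11. Neither motif occurred in the entries of Slc7a6, Slc7a8, Slc15a2 and Slc43a1 in this window.

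Carriers of other families were read from a list. Of 20 other amino acid carriers 6 were kept and none was 2-fold different in any comparison on its brightest probe set. The background was 4.83% at 24 h, 6.44% at 48 h and 3.22% between the tamoxifen arrays. With only 6 genes, none passing cannot be told apart from these shares. The medians were -0.06 at 24 h and 0.03 at 48 h. Slc16a10 (TAT1), which carries aromatic amino acids, read 200.9 and 131.0 against 103.5 on oil, 1.94-fold higher at 24 h. Slc6a6, the taurine carrier, read 243.5 and 400.3 against 414.1, with 24 h the low array. Slc66a1 (PQLC2), which exports cationic amino acids from lysosomes, read 53.2 and 40.4 against 33.2.

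Of 34 genes that sense amino acids for mTORC1, 31 were kept. On their brightest probe sets, 1 was lower by 2-fold at 24 h (background 2.48%) and none higher (background 2.35%). None of these probe sets passed at 48 h (background 6.44% in either direction) or between the tamoxifen arrays (background 3.22%). The medians were 0.04 at 24 h and -0.17 at 48 h. Flcn, which activates the Rag GTPases, read 123.9 and 187.1 against 253.0 on oil, 2.04-fold lower at 24 h, while a further kept probe set of Flcn had a log2 ratio of -0.16. Its partner Fnip1 read 283.2 and 396.6 against 499.2, log2 ratios of -0.82 and -0.33. The other kept probe sets of Fnip1 had log2 ratios between -1.03 and -0.61 at 24 h and between -1.45 and -0.41 at 48 h.

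Of 14 amino acid response genes 12 were kept, with median log2 ratios of 0.48 at 24 h and 0.41 at 48 h. At 24 h the transcription factors Atf3 and Atf5 were at least 2-fold higher (background 2.35%) and Chac1 lower (background 2.48%). At 48 h Atf3, Ddit3 and Trib3 were higher (background 3.72%) and none lower (background 2.71%). The brightest probe set of Ddit3 had log2 ratios to oil of 0.95 at 24 h and 1.96 at 48 h. Its other kept one gave -0.14 and 0.78, within 2-fold. By size of change the first were Trib3, a pseudokinase that binds Akt, at 25.1 and 112.3 on the tamoxifen 24 h and 48 h arrays against 21.2 on oil, and Chac1, which degrades glutathione, at 170.7 and 669.9 against 798.3. The other kept probe set of Trib3 had log2 ratios to oil of 1.47 at 24 h and 3.14 at 48 h, beside 0.24 at 24 h on the first, which was 5.29-fold above oil at 48 h, so they differed on whether the 24 h array was past 2-fold.

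The opposite-strand genes were within 2-fold. Slc7a6os read 33.5 and 34.5 against 25.2 on oil, log2 ratios of 0.41 and 0.45, beside -0.39 and -1.02 for its neighbour Slc7a6. This contrast was not seen on their other probe sets. That of Slc7a6os, not kept, gave -0.68 and -0.45, and the other kept one of Slc7a6 gave 0.25 and 0.14. Slc36a1os was not kept.

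Agreement between probe sets of one gene gives the only technical yardstick here. For the 10 transporter genes with 2 or more kept probe sets, the 2 brightest differed by a median of 0.32 in log2 ratio at 24 h and 0.22 at 48 h, beside 0.32 and 0.29 over 5001 genes. They had the same sign in 6 of 10 genes at both times, beside 61.1% and 66.8% of all such genes. Of the 6 transporters past 2-fold, 1 (Slc7a6) had a second kept probe set, and it did not pass. At the level of single probe sets, 4 of 50 were 2-fold different at 24 h (background 6.64%) and 9 of 50 at 48 h (background 7.01%), and among the 9 were probe sets of Slc1a1, Slc7a2 and Slc38a9 whose brighter companions did not pass.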

How the data were processed

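Values were the intensities that the authors deposited in the series' value table, on a linear scale. The sources used here do not say how they were summarised, background-corrected and scaled. Biotin-labelled total RNA was hybridised by the standard Affymetrix protocol, per the labels' protocols. Genes were named from the platform annotation, and only probe sets with 1 gene symbol were used. Of 45101 probe sets, 64 were controls, 932 listed several genes and 9160 were not listed.

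Probe sets with a mean percentile rank of 0.5 or more over the 3 arrays were kept (21804). Arrays were scaled to one median over these, by factors of 0.944 (tamoxifen 24 h), 1.05 (tamoxifen 48 h) and 1.01 (oil). Values were floored at 4.05, the 25th percentile, and turned to log2. Each gene was read on the kept probe set that ranks highest. A gene was called different at 2-fold or more, a rule of size. With 1 array per group no p-value, SD or interval was possible. The number of arrays limits the precision.

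Each kept transporter gene is named, and each other transporter gene is named or counted. Of comparison lists, counts, the median and up to 4 members by size of change are given. The members and lists were chosen with earlier results of these data known. The FoxO motif was added after seeing the data. Alternatives covered scaling, floor, pseudocount, filter and choice of probe set. The procedure was run on simulated data with known changes, and recovery was checked only without added noise. That run does not measure error between replicate arrays. Python 3.11.15, numpy 2.4.6, pandas 2.3.3, scipy 1.17.1, statsmodels 0.14.6 and matplotlib 3.10.9 were used.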

Additional observations from a re-analysis of the deposited data

Results flagged for a closer look

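Among probe sets below the filter, which the comparisons did not use, 4, all of the SLC1 family, read above the array median on a tamoxifen array and were there at least 2-fold higher than oil. One of Slc1a4 read 20.8 on the tamoxifen 48 h array and 9.96 at 24 h, against 2.72 on oil. Another of Slc1a4 read 14.6 at 48 h and 7.36 at 24 h, against 2.21 on oil, while the third read 9.78 at 48 h and 13.7 at 24 h, against 14.3 on oil. One of Slc1a1 read 17.3 at 48 h and 10.2 at 24 h, against 4.76 on oil. One of Slc1a3 read 12.9 at 24 h and 2.58 at 48 h, against 3.84 on oil, so that only the 24 h array was high. Others below the filter read lower than oil, among them one of Slc1a5 at 10.6 at 24 h and 6.04 at 48 h, against 29.5. With 1 array per group none of these differences has a replicate check.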

How the results depend on the processing

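No paired analysis was possible because each group has 1 array, and for the same reason no array could be left out. Slc15a2 and Slc43a1 stayed past 2-fold against oil at both times under all 10 alternatives that kept them (log2 ratios from -2.96 to -1.01 and from -1.75 to -1.20). Several of these alternatives could not change the ratio. A floor at percentile 10, a looser filter and no filter left the same probe set and the same values. The mean over kept probe sets did so too where a gene has only 1 kept, as Slc15a2 and Slc43a1 do. A filter at a mean rank of 0.75 leaves out every gene past 2-fold other than Slc7a6. Over the genes named as past 2-fold, 99 of 111 alternative values kept their direction and side of 2-fold, 12 fell within 2-fold and 0 reversed. The 99 include all the values that could not change, so their share of the 111 does not measure how firm the calls are. Only Slc7a6 could change with the mean over kept probe sets. Of the 12, 7 came from log2(value + 16). Slc38a1 and Slc7a5 at 24 h, and Slc38a1 between the tamoxifen arrays, also fell within 2-fold with the floor at percentile 50. Slc7a6 at 48 h did so with all-probe-set scaling and with the mean over kept probe sets.

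A filter at 0.25 compares 39 transporter genes, no filter 45 and a filter at 0.75 only 12. Against oil at 24 h, 1 gene was higher, which became 2 with scaling to the median of all probe sets, with a filter at 0.25 and with no filter, and 0 with the floor at percentile 50, log2(value + 16) or a filter at 0.75. In that order, the share higher over all genes went from 2.35% to 6.32%, 4.27%, 3.81%, 2.12%, 1.14% and 1.70%. The 3 lower genes became 6 with a filter at 0.25, 7 with none and 0 at 0.75. The share lower over all genes went from 2.48% to 7.33%, 6.80% and 0.99%. At 48 h the 2 higher genes became 0 with log2(value + 16) and with a filter at 0.75, and the 3 lower became 5 at 0.25, 6 with no filter and 1 at 0.75. Over all genes the share higher went from 3.72% to 2.01% and 3.03%. The share lower went from 2.71% to 6.60%, 6.20% and 1.41%. Between 48 h and 24 h of tamoxifen the 1 higher gene became 3 with a filter at 0.25 or none and 0 with the floor at percentile 50, log2(value + 16) or a filter at 0.75. In that order, the share higher over all genes went from 1.80% to 5.79%, 5.27%, 1.38%, 0.49% and 0.78%. The 1 lower gene became 0 with log2(value + 16) and with a filter at 0.75. The share lower over all genes went from 1.42% to 0.28% and 0.46%.

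The median of -0.26 at 24 h became 0.027 with all-probe-set scaling, -0.13 with a filter at 0.75 and -0.13 with the mean over kept probe sets, and that of -0.18 at 48 h became -0.064 with the last. The median of 0.04 between the tamoxifen arrays changed sign, to -0.11 unscaled, -0.17 with all-probe-set scaling, -0.10 with quantile and -0.070 with loess normalization, and -0.22 with a filter at 0.75. Scaling also moved the median of all genes, to 0.13 unscaled and 0.33 with all-probe-set scaling at 24 h, and to -0.18 and -0.24 between the tamoxifen arrays. A filter at 0.25 or none tests more genes, and one at 0.75 fewer. The cause of the other changes was not tested.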
